A study of Mus musculus with 79 samples.

Results

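Mouse embryonic stem cells that received auxin and then retinoic acid (RA) were set against cells that received RA without auxin, in a line whose cohesin subunit SCC1 can be degraded on demand. The comparison takes 6 of the 79 samples of the series, namely the 3 auxin-plus-RA and the 3 RA libraries of the SCC1-mAID set and is defined by treatment label. All cells carried the genotype E14;Rosa26::Tir1;Scc1-mAID-eGFP, so the RA cells hold the degron tag too. The auxin-plus-RA cells had 500 µM auxin (IAA) for 6 h and 1 µM RA for the last 4 h; the RA cells had the same RA without auxin. Cells of the same line with auxin alone for 6 h and untreated cells, 3 libraries each, served to give the auxin effect without RA. All were grown with serum and leukemia inhibitory factor, and nuclear RNA was sequenced after rRNA depletion, with Drosophila SG4 cells added for calibration. This is 1 cell line in which Tir1 sits at Rosa26, and the labels do not say whether the replicates were separate cultures, so p-values measure the spread between these libraries, which may be technical. No protein measurement is among the files, so loss of SCC1 protein rests on the labels. No auxin-treated cells without the degron tag are among the 79 samples. An effect of auxin itself and one of SCC1 loss therefore cannot be told apart.

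Cohesin is a ring of SMC1A, SMC3, SCC1 (encoded by Rad21) and a STAG subunit that extrudes chromatin loops until it meets CTCF, and it brings distant enhancers and promoters closer together. In the degron system the plant protein TIR1 binds the mAID tag when auxin is present and passes the tagged protein to the proteasome. RA enters the nucleus and binds RAR receptors on DNA. In stem cells this quickly activates the RA-clearing Cyp26 enzymes, Rarb, Stra8 and the early Hox genes.

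The 12 libraries of the set held 3126025 to 7497894 reads, recovered from the deposited scaled values and kept in 1 transcript per gene, and 14015 genes passed the filter on low counts. Levels are in CPM, read counts scaled to a common library size, which compare libraries for a gene and are not per length, so they do not rank genes. Stem cell markers were present in all 6 libraries compared: Pou5f1 had 438 to 816 CPM, Nanog 155 to 229 CPM and Sall4 433 to 564 CPM. Of the defining markers of other cell types, the fibroblast gene Lum had 0 reads, Elf5 of trophoblast had at most 1 read and Sox17 of endoderm had 2 to 7 reads in any of the 6 libraries. Other markers of those cell types had more reads, with Col1a1 at 43 to 99 reads, Gata6 at 17 to 45, Gata4 at 4 to 32, Col1a2 at 9 to 18, Gata3 at 1 to 19 and Pdgfra at 5.955 to 18.04 CPM. Summed over the lists, markers were at 2615 to 3645 CPM with auxin plus RA, against 2712 to 3586 CPM with RA, for endoderm, and at 1676 to 2004 CPM with auxin plus RA, against 1523 to 1869 CPM with RA, for fibroblasts. Rad21 RNA had 294, 297 and 233 CPM in auxin-plus-RA libraries, against 259, 249 and 261 CPM in RA libraries (log2 fold change 0.10 ± 0.13 SE, edgeR adjusted p = 0.897); the degron acts on the protein, so this does not check the depletion. Auxin-plus-RA replicates 2 and 3 differed most from each other, with a Pearson r of 0.964 over genes, against 0.979 to 0.983 for the other pairs of that group and 0.981 to 0.989 within the RA group.

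More genes were lower than higher. Of 14015 genes, 49 were lower in auxin-plus-RA than in RA libraries (0.35% of genes tested) and 6 were higher (0.0428%), where a call means an adjusted p under 0.05 from edgeR's quasi-likelihood test with Benjamini-Hochberg adjustment. The lower genes had log2 fold changes of -3.30 to -0.65 with a median of -1.08, and 27 of them were at least 2-fold lower. They include the RA-clearing enzyme Cyp26b1, the nuclear receptor corepressor Nrip1, the Hox cofactor Meis2, the activin subunit gene Inhbb and the mesodermal regulator Tcf15. The higher genes were led by the xenobiotic enzymes Cyp1a1 and Cyp1b1, and 5 of the 6 were at least 2-fold higher. In all 55 called genes the 3 auxin-plus-RA libraries lay entirely on one side of the 3 RA libraries, as they did below RA in 5.31% and above RA in 4.4% of all genes tested. Fewer cells and less RNA per cell cannot be told apart in such bulk libraries. The count was 2 higher and 6 lower without auxin-plus-RA replicate 1, and 2 or 3 higher and 18 to 27 lower without any 1 of the RA libraries; 11 genes were higher without auxin-plus-RA replicate 2. Cyp26b1, Cyp1a1, Cyp1b1, Inhbb, Tcf15, Rgma and Plpp3 were the 7 genes called in each of the 6 fits that left out 1 library. Pim1, Tfap2c, Vegfa and Has2 lost their calls in 5 of these fits and Necab1 in all 6. Other called genes, named below, lost theirs as often. With the size factors of the deposited table, which move the median of all genes to -0.33 against 0.01 here, it was 2 higher (Cyp1a1, Cyp1b1) and 2 lower (Cyp26b1, Ak5).

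**Figure D1:**
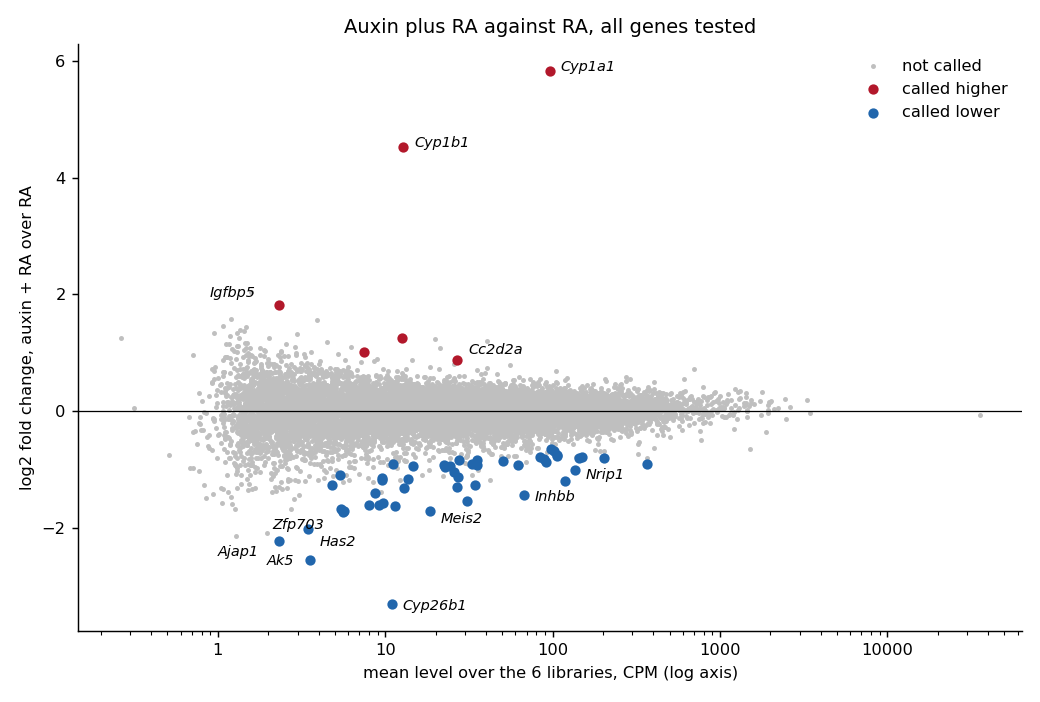
The plot of all genes tested shows the log2 fold change of auxin plus RA over RA against the mean level over the 6 libraries in CPM on a log axis, with 6 called higher genes in red, 49 called lower genes in blue and the rest in grey. Cyp1a1 and Cyp1b1 lie far above the others at 5.83 and 4.52, and Cyp26b1 is the lowest called gene at -3.30.

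Cyp26b1, a cytochrome P450 that oxidises and clears RA, had the lowest p of all genes. It had 2.05, 1.36 and 2.85 CPM in auxin-plus-RA libraries, against 17.1, 21.3 and 21.1 CPM in RA libraries. All 3 RA libraries were high and the groups were far from overlapping, with a level 9.83-fold lower in auxin-plus-RA cells (log2 fold change -3.30 ± 0.26 SE, edgeR adjusted p = 3.36e-06). Its level in cells without RA was 0.637, 0.504 and 0.39 CPM with auxin and 0.54, 0.335 and 0.683 CPM untreated, below every library with RA. The RA response of Cyp26b1, measured within auxin-treated cells, was a log2 fold change of 1.96 (auxin plus RA over auxin, edgeR adjusted p = 0.0232), set beside 5.22 for RA over untreated (edgeR adjusted p = 1.75e-08); these contrasts share libraries with the one reported here. Cyp26b1 was called in every leave-one-out fit and under each of the 8 other settings, with an adjusted p of at most 0.000212.

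Its paralog Cyp26a1, which clears RA too, did not pass the test. Cyp26a1 had 185, 213 and 365 CPM in auxin-plus-RA libraries, against 311, 298 and 383 CPM in RA libraries (log2 fold change -0.38 ± 0.19 SE, edgeR adjusted p = 0.827). Replicate 3 with auxin plus RA lay among the RA libraries. The promoters of the paralogs are shown because Cyp26a1 is a textbook direct target of RA receptors. The retinoic acid response element searched for was a direct repeat with 5 bases between its copies (DR5), each copy being AGGTCA, its variant AGTTCA, the form GGGTCA or the form GGTTCA, on either strand, from 250 bases before to 50 bases after the RefSeq start. Such a repeat stood in 5 of the 13689 promoters of genes tested (0.037%). Capitals mark the match, which in Cyp26a1 begins 32 bases before the start and reads on the other strand; the Cyp26b1 window holds none, which says only that these letters are absent there. Sequences are from RefSeq, build GRCm38.p6, at chr6:84593761-84594060 on the minus strand for Cyp26b1 and chr19:37697558-37697857 on the plus strand for Cyp26a1.
Cyp26b1: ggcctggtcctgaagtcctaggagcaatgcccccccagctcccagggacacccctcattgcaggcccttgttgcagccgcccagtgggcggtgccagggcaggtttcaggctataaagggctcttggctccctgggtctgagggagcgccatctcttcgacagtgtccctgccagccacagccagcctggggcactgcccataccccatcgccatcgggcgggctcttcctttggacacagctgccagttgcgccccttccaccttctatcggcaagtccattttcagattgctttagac
Cyp26a1: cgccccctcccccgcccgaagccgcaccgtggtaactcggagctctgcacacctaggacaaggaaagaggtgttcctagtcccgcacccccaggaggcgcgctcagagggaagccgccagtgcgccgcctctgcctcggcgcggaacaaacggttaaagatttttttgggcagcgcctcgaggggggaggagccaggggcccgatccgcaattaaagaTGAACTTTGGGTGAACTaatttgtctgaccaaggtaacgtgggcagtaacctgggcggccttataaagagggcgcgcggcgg

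Nrip1 encodes a corepressor that nuclear receptors recruit when ligand is bound. It had 82.4, 104 and 83.8 CPM in auxin-plus-RA libraries, against 165, 183 and 194 CPM in RA libraries. The groups did not overlap, and the level was 2.01-fold lower in auxin-plus-RA cells (log2 fold change -1.0 ± 0.15 SE, edgeR adjusted p = 0.00484). Nrip1 was at 24.8, 28 and 36.1 CPM with auxin alone and at 34, 31.3 and 27.3 CPM untreated. All auxin-plus-RA libraries were thus above every library without RA, and below every RA library.

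Meis2, a homeodomain partner of Hox proteins, had 8.07, 12.4 and 4.92 CPM in auxin-plus-RA libraries, against 28.7, 28 and 28.5 CPM in RA libraries. The RA libraries were nearly equal, while the auxin-plus-RA libraries spread widely and reached down into the range without RA, which was 4.14, 5.54 and 7.6 CPM with auxin alone and 6.47, 8.54 and 4.55 CPM untreated. The level was 3.25-fold lower (log2 fold change -1.70 ± 0.26 SE, edgeR adjusted p = 0.00484). Zfp703, a zinc finger repressor, had 2.05, 3.33 and 2.59 CPM in auxin-plus-RA libraries, against 8.08, 8.83 and 9.38 CPM in RA libraries. Its level fell by 1.71 on the log2 scale (SE 0.29, edgeR adjusted p = 0.00845), with all RA libraries high. Without auxin-plus-RA replicate 1 the calls of Nrip1, Meis2 and Zfp703 were lost (edgeR adjusted p = 0.0695, 0.0695 and 0.118), as was that of Zfp703 without RA replicate 3 (edgeR adjusted p = 0.0641). Over all alternatives the adjusted p ran from 3.23e-07 to 0.901 for Nrip1, from 3.09e-06 to 0.0695 for Meis2 and from 0.000586 to 0.214 for Zfp703.

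**Figure D2:**
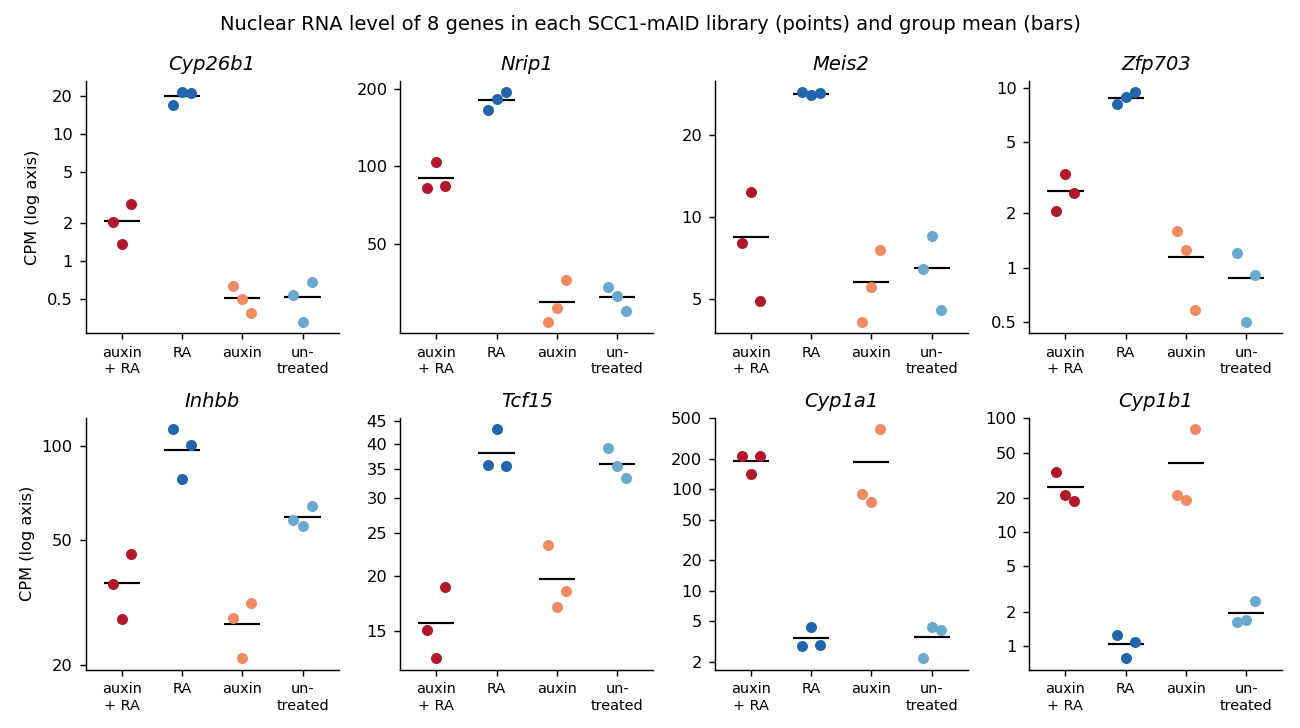
The panels of 8 genes plot CPM on a log axis in each SCC1-mAID library (points) with the group mean (bars), for auxin plus RA, RA, auxin alone and untreated cells. Cyp26b1, Nrip1, Meis2 and Zfp703 are high in the RA libraries and lower in the auxin-plus-RA libraries, Inhbb and Tcf15 are low in both auxin groups, and Cyp1a1 and Cyp1b1 are high in both auxin groups.

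Most other genes of RA metabolism, receptors and response did not pass the test. Of the 23 genes listed for the pathway 20 were tested; 2 fell, Cyp26b1 and Nrip1, and none rose, against 0.35% of all genes called lower and 0.0428% called higher. The median log2 fold change was 0.01, as over all genes. Cyp26c1, Aldh1a1 and Aldh1a3 were not tested because of low counts. Stra8, a germ cell gene induced by RA, had 180, 217 and 195 CPM in auxin-plus-RA libraries, against 142, 181 and 141 CPM in RA libraries (log2 fold change 0.35 ± 0.16 SE, edgeR adjusted p = 0.748). The ranges of Stra8 overlapped. Its value was -0.03 with the deposited size factors, a shift close to that of all genes. Rarb, the receptor gene that RA itself induces, had 32.6, 53.2 and 32.3 CPM in auxin-plus-RA libraries, against 41.0, 43.4 and 31.0 CPM in RA libraries (log2 fold change 0.05 ± 0.23 SE, edgeR adjusted p = 0.978). The auxin-plus-RA range of Rarb, 32.3 to 53.2 CPM, overlapped its RA range of 31.0 to 43.4 CPM. Dhrs3, a retinaldehyde reductase, had 31.7, 34.6 and 48.6 CPM in auxin-plus-RA libraries, against 50.1, 56.4 and 50.7 CPM in RA libraries (log2 fold change -0.46 ± 0.16 SE, edgeR adjusted p = 0.51). Dhrs3 was one of 5 listed genes whose groups did not overlap, all with auxin plus RA below RA, as in 5.31% of all genes tested. The receptor gene Rara and the RA uptake gene Stra6 had log2 fold changes of 0.12 ± 0.19 and -0.16 ± 0.23 (SE), neither of them called.

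Genes of the pathway were also induced by RA in auxin-treated cells. In cells with auxin, 10 of the 20 tested genes of the list were higher with RA than without, against 1.83% of all genes tested called higher and 2.67% called in either direction. In cells without auxin 9 of 20 were, against 1.78% of all genes tested. Cyp26a1 had log2 fold changes of 7.22 for auxin plus RA over auxin and 6.75 for RA over untreated, and for Stra8 they were 3.30 and 3.47 (edgeR adjusted p = 4.92e-09 and 2.98e-09).

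**Figure D3:**
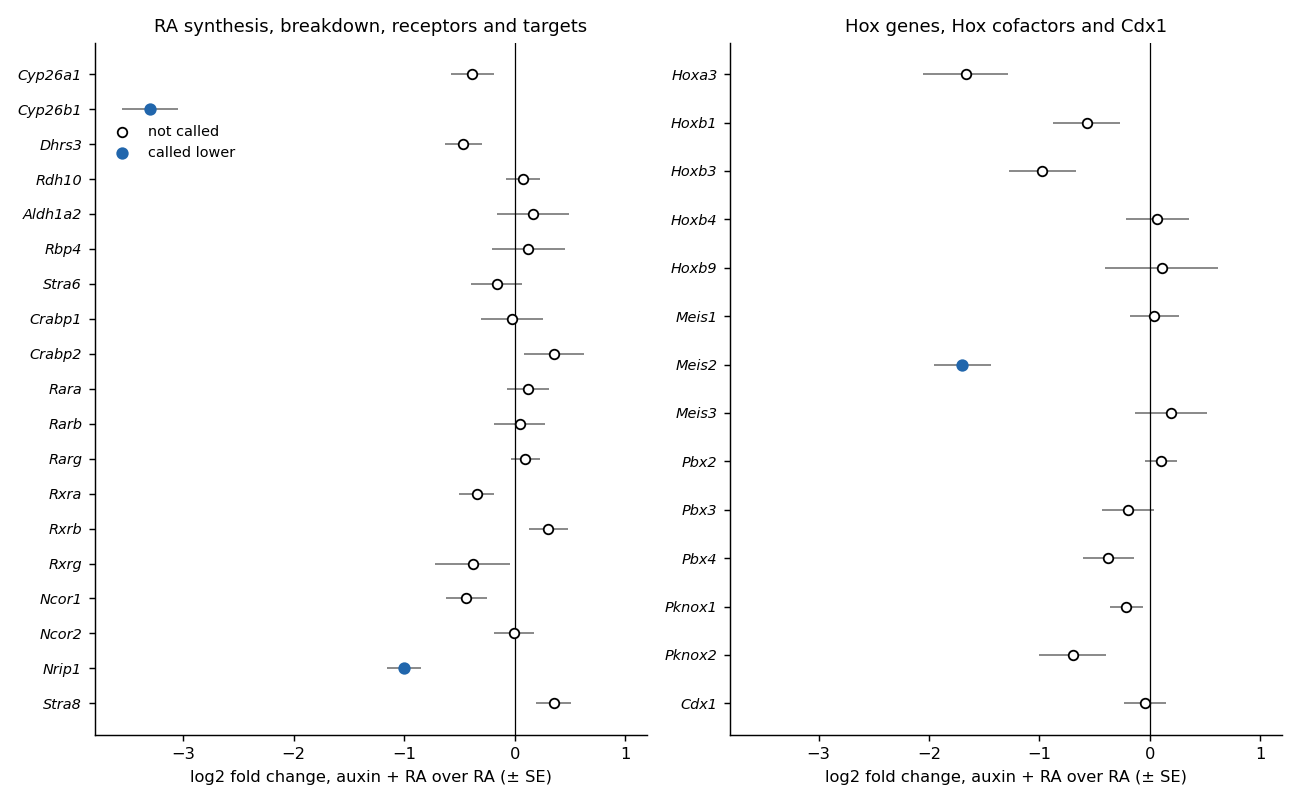
The dot plots show the log2 fold change of auxin plus RA over RA with its SE for tested genes of RA metabolism, transport, receptors and response (left) and for Hox genes, Hox cofactors and Cdx1 (right). Blue points mark the 3 called genes, Cyp26b1 at -3.30, Nrip1 at -1.0 and Meis2 at -1.70, and open points mark genes that were not called.

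Among the Hox genes, which pattern the body axis and answer to RA in 3′ to 5′ order, no member was called. Only 2 of 11 Hoxa and 4 of 10 Hoxb genes passed the filter, and none of 18 Hoxc and Hoxd genes. Hoxa3 had 1.47, 1.51 and 0.776 CPM in auxin-plus-RA libraries, against 4.49, 4.67 and 3.61 CPM in RA libraries. The Hoxa3 groups did not overlap, but the difference of -1.67 ± 0.39 (log2, SE) had an edgeR adjusted p of 0.0889. Hoxb1 and Hoxb3 had log2 fold changes of -0.57 ± 0.30 and -0.97 ± 0.30, and Hoxb4 and Hoxb9 of 0.07 ± 0.28 and 0.11 ± 0.51 (SE). Hoxb3 alone of these 4 had groups that did not overlap, at 3.08, 3.78 and 2.33 CPM with auxin plus RA, against 6.11, 7.01 and 5.59 CPM with RA. Of the 10 tested Hox cofactor and caudal genes, Meis2 was the one called; Meis1 had a log2 fold change of 0.04 ± 0.22 and the caudal gene Cdx1 of -0.04 ± 0.19 (SE).

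Inhbb, which encodes the βB subunit of activin and inhibin, had 36.2, 28 and 45.3 CPM in auxin-plus-RA libraries, against 113, 78.4 and 101 CPM in RA libraries. Its highest auxin-plus-RA library was below its lowest RA library, and it fell by 1.43 on the log2 scale (SE 0.19, edgeR adjusted p = 0.00281). Rgma, a guidance molecule that also acts as a BMP coreceptor, had 5.13, 4.54 and 4.66 CPM in auxin-plus-RA libraries, against 13.3, 13 and 11.5 CPM in RA libraries. Both groups of Rgma were tight and well apart (log2 fold change -1.39 ± 0.20 SE, edgeR adjusted p = 0.00484). Epha4, an ephrin receptor kinase, had 68.8, 76.1 and 72.4 CPM in auxin-plus-RA libraries, against 175, 156 and 168 CPM in RA libraries. Epha4 fell 2.29-fold (edgeR adjusted p = 0.00484), again with no overlap. The growth factor gene Vegfa fell by 0.92 on the log2 scale to 18.8, 21.5 and 33.4 CPM in auxin-plus-RA libraries, against 49.0, 46.0 and 42.0 CPM in RA libraries (SE 0.19, edgeR adjusted p = 0.0473). Of 21 tested genes listed for Nodal and BMP signalling Inhbb was the one that fell, and the list's median was 0.05. Vegfa was the one called gene of 14 listed for the integrated stress response, a list in which it stands as a target induced under stress; the median of that list was 0.04.

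Tcf15, a basic helix-loop-helix factor of early mesoderm, had 15.1, 13 and 18.9 CPM in auxin-plus-RA libraries, against 35.7, 43.1 and 35.5 CPM in RA libraries. It fell 2.46-fold (log2 fold change -1.30 ± 0.18 SE, edgeR adjusted p = 0.00281) and its groups were far apart. Tob1, an antiproliferative factor, had 35.8, 33.7 and 39.3 CPM in auxin-plus-RA libraries, against 66.8, 67 and 62.4 CPM in RA libraries (log2 fold change -0.85 ± 0.13 SE, edgeR adjusted p = 0.00484). Tfap2c, a factor of trophoblast and germ cells, fell by 0.84 (SE 0.17, edgeR adjusted p = 0.0307) and the kinase gene Pim1, a STAT3 target, fell by 0.74 (SE 0.14, edgeR adjusted p = 0.0244) on the log2 scale. Tfap2c was the one called gene of 7 tested trophoblast genes, whose summed level was 54.3 to 70.4 CPM with auxin plus RA, against 70.4 to 76.3 CPM with RA, with Elf5 at or near 0. Pim1 was the one called gene of 11 tested for LIF and STAT3 signalling.

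No gene of the 16 listed for naive pluripotency was called, and their median was -0.18. Klf4, a factor that sustains the naive state, had 48.8, 57.6 and 41.7 CPM in auxin-plus-RA libraries, against 99.5, 99.5 and 71.6 CPM in RA libraries. Its groups did not overlap, yet the log2 fold change of -0.86 ± 0.20 (SE) had an edgeR adjusted p of 0.0804; with auxin alone Klf4 fell by 1.13 on the log2 scale (edgeR adjusted p = 0.0197). In 6 of the 16 genes, namely Klf4, Klf5, Esrrb, Tfcp2l1, Tbx3 and Nr5a2, all auxin-plus-RA libraries were below all RA libraries (5.31% of all genes tested), and in none were they above (4.4%). Nanog had 229, 170 and 155 CPM in auxin-plus-RA libraries, against 182, 195 and 169 CPM in RA libraries, a difference within the replicate spread. Klf4 and the others of this paragraph were named after their values were seen.

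Plpp3, a phosphatase of lipid phosphates, had 19.2, 16.3 and 11.4 CPM in auxin-plus-RA libraries, against 53.3, 39.5 and 44.4 CPM in RA libraries (log2 fold change -1.53 ± 0.23 SE, edgeR adjusted p = 0.00484). The hyaluronan synthase gene Has2 had 1.61, 1.21 and 1.29 CPM in auxin-plus-RA libraries, against 5.57, 4.16 and 7.04 CPM in RA libraries (log2 fold change -2.02 ± 0.37 SE, edgeR adjusted p = 0.0187). Cemip, whose product binds and degrades hyaluronan, had 4.99, 3.33 and 3.36 CPM in auxin-plus-RA libraries, against 12.9, 12.5 and 10.8 CPM in RA libraries. Cemip fell 3.04-fold (edgeR adjusted p = 0.00823), and neither gene had overlapping groups. Ajap1, an adherens junction-associated membrane protein, fell by 2.22 and the calcium-binding Necab1 by 1.71 on the log2 scale (edgeR adjusted p = 0.00823 and 0.0313). Phlda1, Tcerg1l and Mfap3l fell by 1.60, 1.62 and 1.68 (edgeR adjusted p = 0.00484 each). The adenylate kinase gene Ak5 fell by 2.54 to 0.587, 1.66 and 0.776 CPM in auxin-plus-RA libraries, against 5.93, 5.45 and 6.86 CPM in RA libraries (edgeR adjusted p = 0.00875). Ak5 overlaps Zzz3, which held far more reads (146 CPM in RA replicate 3), so that its value is uncertain where the counting did not use strand; the strand setting is not given in the sources used here. Crybg3 is uncertain for the same reason, through Riox2. Necab1 overlaps Gm11837, which held fewer reads, equal to 19.33% of those of Necab1.

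The other 28 lower genes had log2 fold changes of -1.57 to -0.65 and edgeR adjusted p from 0.00531 to 0.0495; their names were taken after their values were seen. They include the transcriptional regulators Casz1, Nfkb1, Pml, Med13l and Zmym3, the signalling genes Sema7a (a semaphorin), Ror2 (a Wnt receptor), Adcy1 (an adenylate cyclase) and Sik1 (a salt-inducible kinase), and the RNA-binding translation regulator Cpeb1. Others are the sugar-modifying enzymes Hs6st1 and Man2a1, the carbonic anhydrase gene Car2, the oxygen-sensing hydroxylase gene Egln3, tissue factor F3 and the neuronal genes Basp1 and Enc1. The remainder are Dlc1, Pnpla3, Parm1, Eepd1, Sned1, Nol4l, Fam43a, Fam49a, Sh3bp2, Ldlrad3 and Crybg3. Ror2, Fam43a, Sh3bp2 and Crybg3 lost their calls in all 6 leave-one-out fits. Adcy1, Zmym3, Egln3, F3, Parm1, Sned1, Fam49a and Ldlrad3 lost theirs in 5 of them. Casz1 at 15.3, 18.4 and 16.6 CPM with auxin plus RA, against 30.5, 39.7 and 33.2 CPM with RA, and Basp1 at 76.5, 78.9 and 79.4 CPM with auxin plus RA, against 136, 130 and 133 CPM with RA, show the size typical of this group.

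The 6 higher genes were led by a pair of enzymes that are classical targets of the aryl hydrocarbon receptor, the sensor of planar aromatic compounds. Cyp1a1 had 214, 141 and 213 CPM in auxin-plus-RA libraries, against 2.87, 4.42 and 2.89 CPM in RA libraries. The level was 56.9-fold higher (log2 fold change 5.83 ± 0.61 SE, edgeR adjusted p = 0.000441), the largest change of any gene tested. Cyp1b1 had 34, 21.0 and 18.9 CPM in auxin-plus-RA libraries, against 1.26, 0.779 and 1.08 CPM in RA libraries, which is 22.9-fold higher (log2 fold change 4.52 ± 0.61 SE, edgeR adjusted p = 0.00281). The call of Cyp1b1 was lost with no filter on low counts (edgeR adjusted p = 0.0934, with a range of 5.12e-12 to 0.0934 over all alternatives). Neither pair of groups came close to overlapping. Of the other 7 tested genes of the receptor list none was called: the receptor gene Ahr had 10.1, 14.2 and 7.5 CPM in auxin-plus-RA libraries, against 19.8, 17.4 and 13 CPM in RA libraries, and its repressor gene Ahrr and its targets Nqo1 and Tiparp had log2 fold changes of 1.06 ± 0.67, 0.45 ± 0.18 and -0.24 ± 0.25 (SE).

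The promoters of Cyp1a1 and Cyp1b1 are shown because the receptor's binding core, GCGTG on either strand, can be looked for in them. Capitals mark the matches, 1 in each, which begin 54 bases before the RefSeq start in Cyp1a1 and 76 bases before it in Cyp1b1, there on the other strand. The core is common, standing in 50.2% of the 13689 promoters of genes tested, in 19 of 35 lower genes with a promoter in the table and in 56.1% of all tested genes with one. The windows are chr9:57697363-57697662 on the plus strand and chr17:79715012-79715311 on the minus strand of GRCm38.p6.
Cyp1a1: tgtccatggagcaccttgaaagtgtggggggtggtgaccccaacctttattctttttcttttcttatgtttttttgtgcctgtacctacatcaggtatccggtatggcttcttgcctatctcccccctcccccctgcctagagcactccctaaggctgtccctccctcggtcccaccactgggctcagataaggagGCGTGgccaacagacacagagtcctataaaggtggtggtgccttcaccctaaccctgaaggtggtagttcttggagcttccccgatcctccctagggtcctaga
Cyp1b1: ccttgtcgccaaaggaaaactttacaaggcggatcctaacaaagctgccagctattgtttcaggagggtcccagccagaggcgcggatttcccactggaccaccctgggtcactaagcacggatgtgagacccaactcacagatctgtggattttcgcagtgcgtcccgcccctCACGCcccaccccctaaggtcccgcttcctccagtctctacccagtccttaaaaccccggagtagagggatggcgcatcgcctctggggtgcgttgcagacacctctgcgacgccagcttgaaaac

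The other 4 higher genes moved less. Igfbp5, which binds insulin-like growth factors, had 3.08, 3.93 and 3.88 CPM in auxin-plus-RA libraries, against 0.898, 0.779 and 1.26 CPM in RA libraries (log2 fold change 1.83 ± 0.35 SE, edgeR adjusted p = 0.024). Tmem220, a membrane protein gene, had 22.1, 16.8 and 14 CPM in auxin-plus-RA libraries, against 8.08, 5.97 and 8.12 CPM in RA libraries (log2 fold change 1.25 ± 0.22 SE, edgeR adjusted p = 0.0107). Cc2d2a of the ciliary transition zone rose by 0.88 (SE 0.15, edgeR adjusted p = 0.00823) and the X-linked Armcx6 by 1.02 (SE 0.21, edgeR adjusted p = 0.0388) on the log2 scale. All had groups apart, but of the 6 leave-one-out fits Igfbp5 lost its call in all 6, Armcx6 in 5, Tmem220 in 4 and Cc2d2a in 3.

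Auxin without RA was compared with untreated cells, a contrast that shares no library with the one above. Both contrasts came from 1 fit of all 12 libraries with a shared estimate of the spread, so their calls are not independent. It gave 14 higher genes (0.0999%) and 25 lower genes (0.178%). These counts were 2 higher and 2 to 7 lower without any 1 untreated library, 17 higher and 2 lower without auxin replicate 2, and 9 higher and 59 lower without auxin replicate 3. Of the 6 genes higher with auxin plus RA, 3 were also higher with auxin alone, Cyp1a1, Cyp1b1 and Tmem220, which is 50% of one list and 21.4% of the other. Of the 49 lower genes, 13 were also lower with auxin alone, which is 26.5% of one list and 52% of the other, and no gene was called in opposite directions. The shared lower genes were Inhbb, Tcf15, Epha4, Phlda1, Mfap3l, Basp1, Casz1, Enc1, Pml, Dlc1, Sik1, Car2 and Sned1. Below the threshold the direction was mostly shared as well: 46 of the 49 were below 0 with auxin alone, against 52% of all genes tested, and in 37 of them all auxin libraries lay below all untreated libraries, as in 10.5% of all genes. In 5 of the 6 higher genes all auxin libraries lay above all untreated libraries, as in 8.89% of all genes; the exception was Armcx6. The median log2 fold change of the 49 genes was -0.71 with auxin alone and -1.08 with auxin plus RA. The 49 genes were chosen by their call with auxin plus RA, which favours a larger change there. These medians therefore do not compare the size of the auxin effect with and without RA.

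Cyp1a1 had 90.4, 75.2 and 389 CPM with auxin alone, against 2.16, 4.35 and 4.10 CPM in untreated cells (log2 fold change 5.75, edgeR adjusted p = 0.000791). One auxin library stood well above the other two, and all were far above the untreated ones. Inhbb had 28.3, 21.0 and 31.6 CPM with auxin alone, against 58.3, 55.6 and 64.6 CPM in untreated cells (log2 fold change -1.15, edgeR adjusted p = 0.0197). Tcf15 had 23.6, 17.0 and 18.5 CPM with auxin alone, against 39.1, 35.5 and 33.5 CPM in untreated cells (log2 fold change -0.90, edgeR adjusted p = 0.0383). Both were low in all auxin libraries, whether or not RA was present.

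Other genes had a log2 fold change near 0 with auxin alone. It was -0.04 ± 0.59 for Cyp26b1, -0.06 ± 0.17 for Nrip1 and -0.12 ± 0.18 for Rgma (SE). For Meis2 it was -0.17 ± 0.31 and for Zfp703 0.30 ± 0.48 (SE), and none was called. Without RA, Cyp26b1 was at 0.335 to 0.683 CPM and Zfp703 at 0.502 to 1.59 CPM. A few reads set such values, so an auxin effect on these genes without RA could be missed. The difference between the auxin effects with and without RA was tested in the same fit for all genes, and no gene passed (edgeR, 0% of 14015, 985 genes at an unadjusted p under 0.05, lowest adjusted p = 0.474). The same test gave 1 call with DESeq2, Rpl3, and 0 with limma on values scaled by the size factors of the deposited table. With no filter on low counts edgeR gave 3 calls, Rpl3, Rps12 and Ak5 (adjusted p = 0.00444, 0.0287 and 0.0287), of which Ak5 was also lower with auxin plus RA. The 10 genes with the lowest p of this difference included Ak5, Rgma and Cyp26b1, with differences of -3.27 ± 0.69, -1.27 ± 0.27 and -3.26 ± 0.71 (log2, SE; edgeR unadjusted p = 0.00017, 0.000202 and 0.000239). For Nrip1, Meis2 and Zfp703 it was -0.95, -1.53 and -2.02. The others of the 10 were Rpl3, Rps12, Mss51, 2900076A07Rik, Snord87, D7Ertd143e and Timm8a1, which were not called with auxin plus RA and had log2 fold changes of 0.83 to 1.67 with auxin alone. Rpl3, a ribosomal protein gene, had 256, 202 and 336 CPM with auxin alone, against 122, 130 and 130 CPM in untreated cells; copies of ribosomal protein genes elsewhere in the genome can share such reads.

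**Figure D4:**
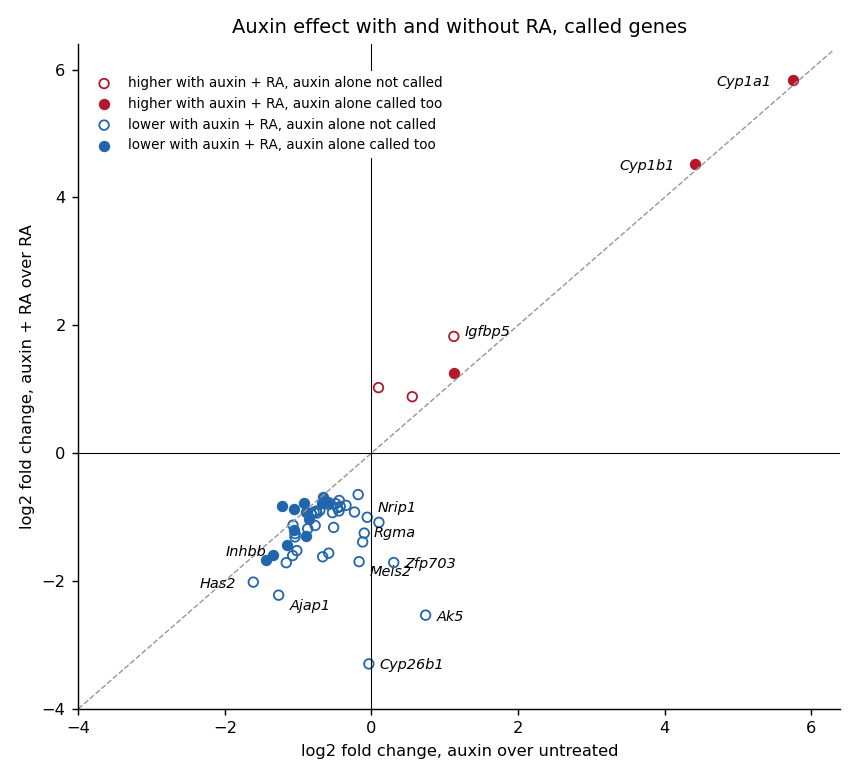
The scatter of the 55 called genes sets the log2 fold change of auxin plus RA over RA (vertical) against that of auxin over untreated (horizontal), with filled points for genes also called with auxin alone and a dashed line of equal values. Cyp1a1 and Cyp1b1 lie close to the line at the upper right, while Cyp26b1, Ak5, Meis2 and Zfp703 lie far below it, at horizontal values of -0.17 to 0.74.

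Of the 49 lower genes, 12 were higher in RA than in untreated cells and 2 were lower, Epha4 and Mfap3l, while the other 35 did not pass that test. Of all genes tested 1.78% were called higher, 0.749% lower and 2.53% in either direction. Since the RA libraries serve in both contrasts, a high value in them favours both calls, and these values are set side by side only. Among the 12, the RA response within auxin-treated cells (auxin plus RA over auxin) still passed the test for 4 genes, Cyp26b1, Nrip1, Pim1 and Zmym3. For Meis2 it was 0.57, set beside 2.10 for RA over untreated, for Zfp703 1.24 and 3.26, and for Tcerg1l 0.07 and 1.02 on the log2 scale. Epha4, which RA lowers, was at 332, 350 and 341 CPM in untreated cells and lower in each group with auxin, RA or both, at 72.4 CPM on average with auxin plus RA.

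A wider set of RA targets was taken from unmodified E14 cells, whose libraries are not used above: 126 genes were at least 2-fold higher after 4 h of RA than at 0 h (0.837% of 15061 genes, 4 and 2 libraries), and 115 of them were tested here. The E14 cells also had 1 µM RA, but their libraries were total RNA and not nuclear RNA. In auxin-plus-RA against RA, 7 of the 115 fell, or 6.09%, and none rose, against 0.35% of all genes called lower and 0.0428% called higher. The 7 were Cyp26b1, Rgma, Nrip1, Meis2, Cemip, Zfp703 and Nol4l. The median of the 115 was -0.07, against 0.01 for all genes, and 63 of them were below 0. All auxin-plus-RA libraries were below all RA libraries in 25 of the 115 genes (21.7%, against 5.31% of all genes tested) and above in 9 (7.8%, against 4.4%). Genes enter the filter in part through their level with RA, so these shares describe the tested genes alone. The median was -0.22 without auxin-plus-RA replicate 3 and -0.10, -0.20 and 0.02 in the 3 auxin-plus-RA libraries taken singly against the RA mean.

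Of the 6 E14-induced genes with the lowest p on the upper side, Letmd1, Acp5, Pou2f2, Ttc25, Camk2n1 and Stra8, none was called. Acp5, an acid phosphatase gene, had a mean of 99.9 ± 32.7 CPM in auxin-plus-RA libraries and 67.8 ± 2.16 CPM in RA libraries (SD, n = 3 each), with replicate 2 of the auxin-plus-RA group at 65.5 CPM, among the RA libraries; it passed the test without auxin-plus-RA replicate 2 (log2 fold change 0.80, edgeR adjusted p = 0.0264), while over all alternatives its adjusted p ran from 0.0264 to 1.0. Rgma was higher with RA in total RNA of E14 cells, by 1.11 on the log2 scale. In nuclear RNA of SCC1-mAID cells the RA over untreated value was -0.12. These sets differ in both cell line and RNA fraction, which cannot be told apart here. Of the 60 tested genes that RA lowered at least 2-fold in E14 cells (64 genes, 0.425%), Mfap3l fell with auxin plus RA and the median was 0.00.

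**Figure D5:**
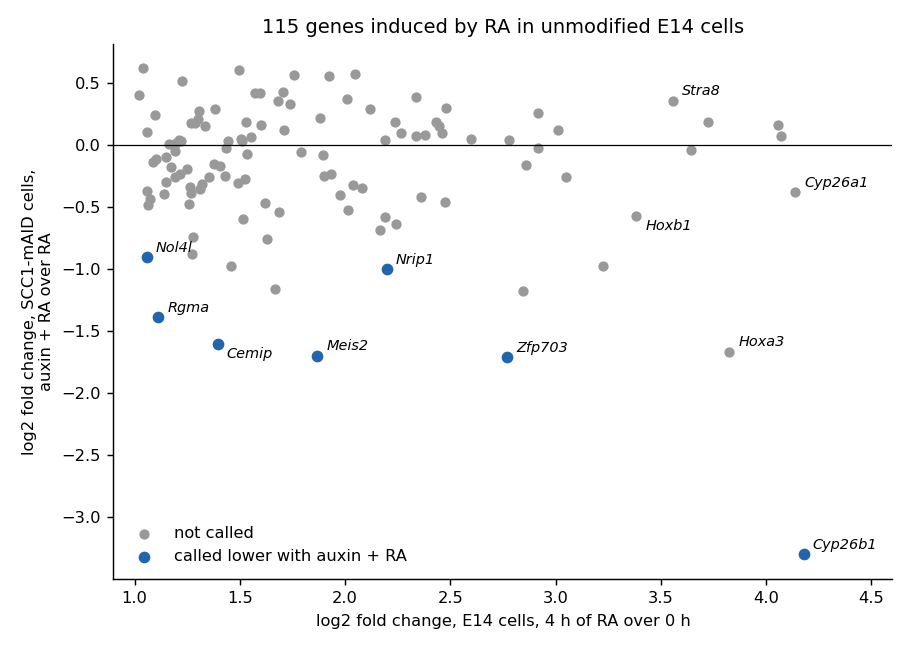
The scatter of 115 genes induced by RA in unmodified E14 cells sets the log2 fold change of auxin plus RA over RA in SCC1-mAID cells (vertical, nuclear RNA) against the E14 log2 fold change at 4 h (horizontal, total RNA), with the 7 called lower genes in blue. Most points lie near 0 whatever their induction, and Cyp26b1 stands alone at -3.30.

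Of the 32 gene lists examined 25 held no called gene, 1 of them with no member tested. None of the 18 cohesin and CTCF genes was called and their range was -0.35 to 0.36. The same held for 18 p53 targets (median 0.16), 16 immediate early genes (-0.16), 27 Polycomb genes (-0.05), 35 imprinted genes (-0.01) and 36 clustered protocadherins (-0.06), which share exons and so may share reads. All 22 genes of G2 and mitosis had a value above 0, with a median of 0.21 and a summed level of 4810 to 5166 CPM in auxin-plus-RA libraries, against 4158 to 4449 CPM in RA libraries, and none was called. With the deposited size factors that median was -0.15 and the median of all genes -0.33. Other size factors shift all genes by a similar amount, so this cannot check where the list lies among them. The 11 tested genes of the 2-cell-like state include Zscan4 copies that share sequence and may share reads. The median of the 11 was 0.31, and -0.02 with the same factors, a shift like that of all genes. The summed level of that list was 33.9 to 57.5 CPM with auxin plus RA, against 22.6 to 49.8 CPM with RA, so the ranges overlapped.

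The lower genes were longer than average. Their median span was 50.5 kb, against 22.9 kb for all genes tested and 13 kb for the 6 higher genes, and 24 of the 49 lay in the longest quartile of genes (56.5 to 2271 kb). Over all genes the log2 fold change moved with span too, from a median of 0.13 in the shortest quartile to -0.12 in the longest. This slope differed between replicates: on the log2(CPM + 1) scale, relative to the mean of the 12 libraries, the longest minus the shortest quartile was -0.23, 0.24 and -0.46 in auxin-plus-RA replicates 1, 2 and 3, against 0.01, 0.20 and 0.07 in RA replicates 1, 2 and 3. For auxin alone over untreated, the median log2 fold change was -0.08 in the shortest and -0.01 in the longest quartile. The longest minus the shortest quartile was -0.37, 0.17 and 0.31 in auxin replicates 1, 2 and 3. In untreated replicates 1, 2 and 3 it was -0.06, 0.14 and -0.08. The part of span in the calls was not tested.

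The 55 genes were spread over 17 chromosomes, and 3 lay within 1 Mb of another called gene. These 3 are on chromosome 9, where Cyp1a1 (57687928 to 57703824, RefSeq span) rose while Sema7a (57940135 to 57962865) and Pml (58217180 to 58249786) fell, with 236.3 and 254.3 kb between neighbours. Sema7a had 21.1, 13.9 and 26.4 CPM in auxin-plus-RA libraries, against 52.4, 44.2 and 48.0 CPM in RA libraries (log2 fold change -1.26 ± 0.22 SE, edgeR adjusted p = 0.0118). Pml had 112, 106 and 114 CPM in auxin-plus-RA libraries, against 174, 215 and 180 CPM in RA libraries (log2 fold change -0.78 ± 0.13 SE, edgeR adjusted p = 0.00917). Both were lower with auxin alone as well, by -1.04 for Sema7a, which was not called there (edgeR adjusted p = 0.0541), and by -0.67 for Pml, which was (edgeR adjusted p = 0.0394). This stretch was singled out after its values were seen.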

How the data were processed

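Nuclear RNA-seq of 12 SCC1-mAID libraries was used, with 25 E14 libraries of total RNA to choose RA-induced genes. The submitters' processing notes name STAR, Bowtie2, SAMtools, DESeq2, mm10 and dm6; the counting program, strand setting and origin of the size factors are not given in the sources used here. The deposited table holds, per RefSeq transcript, a signal that is a read count divided by 1 size factor per library, and the authors' log2 fold changes and adjusted p-values. Whole reads were recovered for 100% of values (tolerance 0.1 read). One transcript per gene was kept, names came from the E14 table (28995) or RefSeq (5291), and 1040 unnamed transcripts, at most 0.0104% of reads, were left out. Reads were tested with edgeR 4.0.16 (R 4.3.3; TMM, filterByExpr, robust quasi-likelihood, 1 mean per group, 4 groups of 3), which was tested on simulated data; Benjamini-Hochberg adjustment ran over all 14015 genes. Named genes are the 12 lowest p and 5 largest changes (mean of at least 1 CPM) per direction, called list members, and the E14-induced and auxin-difference genes with lowest p. The comparison, members and lists were chosen with earlier results of these data known. Alternatives used DESeq2 1.42.0, limma 3.58.1 (log2(signal + 1)), other scalings and filters, and left-out libraries. A few listed genes are not reported here by name, though they count among the genes tested.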

Additional observations from a re-analysis of the deposited data

How the results depend on the processing

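Every one of the 55 called genes kept its direction under all 14 alternatives. The main counts of 6 higher and 49 lower genes became 2 and 2 with the deposited size factors and 13 and 81 with DESeq2. They became 2 and 3 with limma. Limma was run on the deposited signal, so its counts here and below carry the deposited size factors too. With no filter 80 genes were lower, and leaving out 1 library gave 2 to 11 higher and 6 to 52 lower. For auxin alone, 14 higher and 25 lower became 2 and 1 with the deposited size factors, 2 and 1 with limma, 75 and 109 with DESeq2, 69 and 80 with no filter, 1 and 4 in a fit of those groups only, and 2 to 17 and 2 to 59 with 1 library left out. The auxin difference, 0 genes, became 3 with no filter and 1 with DESeq2, and stayed 0 in each leave-one-out fit. The E14-induced median of -0.07 became -0.45 with the deposited size factors, under which the median of all genes was -0.33, and -0.2224 to -0.0461 with 1 library left out. Stra8 (uncalled) was at -0.0251 with the deposited size factors, a shift close to that of all genes. Of 854 alternatives for 61 single genes, 562 kept direction and side of the threshold and 290 kept direction but lost the call. Causes were not tested.

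Fits with the replicate number as a block gave 9 higher and 66 lower genes for auxin plus RA, 31 and 77 for auxin alone and 0 for the difference. Same-numbered libraries correlated in their deviations at 0.304, 0.175 and 0.03 with RA and 0.161, 0.195 and -0.007 without. Unlike-numbered libraries ran from -0.322 to 0.094 with RA and from -0.264 to 0.166 without. The main fit used no block because the labels do not say that equal numbers mark a shared day. Whether they do was not tested.

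In the authors' deposited table, transcripts at an adjusted p under 0.05 numbered 3 higher and 41 lower. Counted as genes, the unit used above, these were 2 higher and 23 lower. Depth limits genes near 1 CPM, where a few reads set a value.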
